A study of Mus musculus with 20 samples.

Results

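The 9 genes described here were the transcription factors of the proneural basic helix-loop-helix (bHLH) cascade that were followed in these data, Neurog2, Neurod4, Nhlh1, Nhlh2, Neurod1, Neurod2, Neurod6 and Bhlhe22, with the T-box factor Eomes, which marks the same lineage. They were taken by symbol from the 27998 genes of the scRNA-seq tables, where each had 1 entry, and from the gene list of the RNA-seq of cultured cells. Nestin-EGFP+ cells had been sorted from the microdissected dentate gyrus (DG) of Nestin-EGFP mice at P5, 12w and 24w, and 1 scRNA-seq and 1 scATAC-seq library was made at each age. No other allele or agent is named in the labels for these mice, and the number of mice behind each library is not given in the sources used here. A second set consisted of RNA-seq of cultured neural stem/progenitor cells, for which the labels give the hippocampus as tissue while the study's methods describe cultures from embryonic cortex, with a control or a Setd8 knockdown (KD) lentivirus, collected 3 days after infection under puromycin. The sort limits what can be seen, because the transgene is driven by Nestin regulatory sequence and neurons are included only as far as EGFP is still present in them.

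Proneural bHLH factors bind the E-box, a DNA motif written CANNTG, as dimers with E proteins such as Tcf3, Tcf4 and Tcf12, and drive progenitors to leave the cell cycle and become neurons. Id proteins take the E proteins away from them, and Hes and Hey repressors, which act downstream of Notch, keep their genes silent in stem cells. In the DG, neural stem cells (NSCs) give rise through cycling neural progenitor cells (NPCs), which pass through Neurog2 and Eomes, to immature neurons with Neurod1, and these become granule neurons.

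The sequence just before the start of these genes was read first, since several of the factors are known to act on each other's genes through E-boxes. RefSeq promoter entries of GRCm38.p6 were found for 8 of the 9 genes, with none for Bhlhe22. Within 250 bases before the RefSeq start, 5 of the 8 held at least 1 CANNTG (a palindromic pattern, so the same on both strands), against 66.2% of 32851 promoter entries. CAGATG or its reverse complement CATCTG, one form of CANNTG, was present in 3 of 8, Nhlh1, Nhlh2 and Neurod2, against 14.4% of all entries. CATATG was present in 2 of 8, Neurod1 and Neurod2, against 3.46% of all entries, and CAGCTG in 0 of 8 against 13.0%. The windows of Neurog2, Eomes and Neurod4 held no CANNTG, and that of Neurod6 held 2 of other forms. The 6 windows below, picked for display, are those of Neurog2 and Eomes, without an E-box, and of 4 genes with one. Each is shown 5′ to 3′ on the strand of its gene up to the base before the RefSeq start or before the gene in GENCODE vM21, whichever comes first, with each CANNTG in capitals. They lie at chr3:127632886-127633134 (plus strand) for Neurog2, chr9:118477939-118478188 (plus strand) for Eomes, chr1:172057597-172057846 (minus strand) for Nhlh1, chr3:102009895-102010075 (plus strand) for Nhlh2, chr2:79456752-79456886 (minus strand) for Neurod1 and chr11:98329649-98329895 (minus strand) for Neurod2. A match of letters is a description and not a bound site.
Neurog2: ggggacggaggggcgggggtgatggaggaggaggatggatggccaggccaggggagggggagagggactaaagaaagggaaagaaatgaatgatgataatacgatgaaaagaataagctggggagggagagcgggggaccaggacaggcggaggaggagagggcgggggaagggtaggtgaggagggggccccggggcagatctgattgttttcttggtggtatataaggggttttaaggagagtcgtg
Eomes: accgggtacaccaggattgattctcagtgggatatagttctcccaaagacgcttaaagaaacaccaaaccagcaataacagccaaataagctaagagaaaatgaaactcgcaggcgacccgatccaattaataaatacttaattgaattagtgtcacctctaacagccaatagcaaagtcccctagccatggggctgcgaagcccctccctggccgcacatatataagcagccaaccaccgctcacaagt
Nhlh1: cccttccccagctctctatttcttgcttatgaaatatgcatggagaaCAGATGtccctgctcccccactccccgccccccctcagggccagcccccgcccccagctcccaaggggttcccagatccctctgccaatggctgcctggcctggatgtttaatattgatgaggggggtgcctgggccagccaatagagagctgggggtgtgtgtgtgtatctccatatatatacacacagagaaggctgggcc
Nhlh2: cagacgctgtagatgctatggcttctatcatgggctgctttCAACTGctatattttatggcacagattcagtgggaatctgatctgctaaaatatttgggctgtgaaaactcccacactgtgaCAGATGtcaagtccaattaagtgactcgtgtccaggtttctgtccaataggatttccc
Neurod1: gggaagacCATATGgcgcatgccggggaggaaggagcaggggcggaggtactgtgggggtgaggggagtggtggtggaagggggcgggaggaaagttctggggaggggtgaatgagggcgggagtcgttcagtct
Neurod2: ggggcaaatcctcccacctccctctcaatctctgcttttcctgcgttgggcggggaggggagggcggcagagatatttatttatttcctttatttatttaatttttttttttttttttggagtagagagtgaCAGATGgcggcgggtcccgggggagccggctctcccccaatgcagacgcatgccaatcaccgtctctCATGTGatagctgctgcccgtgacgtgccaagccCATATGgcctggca

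The CAGATG copies began 203 bases (Nhlh1), 127 bases (Nhlh2) and 118 bases (Neurod2) before the RefSeq start, and the CATATG copies 242 bases (Neurod1) and 17 bases (Neurod2) before it.

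The 3 scRNA-seq libraries gave 2795 to 12932 cells with a median of 2178 to 4292 unique molecular identifiers (UMIs), each UMI standing for 1 captured RNA molecule. Cells were clustered after integration of the ages with the 9 genes left out, and clusters were named from markers, so the names end in "-like". The neurogenic classes were NSC-like cells (1414 at P5, 362 at 12w, 112 at 24w), NPC-like cells (1331, 243 and 44), the earlier immature neurons or IMN1-like cells (451, 250 and 39) and the later IMN2-like cells (1167, 497 and 70). Pericyte-like (PC-like) cells served as a class outside the lineage for comparison, although Bhlhe22 and Neurod2 were above the level of free RNA in them (given further on). Levels are pooled UMIs per 1000000 UMIs of a class (CPM), with exact 95% Poisson intervals in parentheses that cover counting error only, and they compare classes and ages within a gene, not genes with each other. Each age is 1 library, so no test between ages was possible, and age cannot be told apart from library or from sex: at 12w 92.4% of cells had Xist and no Y-linked gene, at 24w 0.0358%, and the P5 library held cells of both kinds. Between 26 and 87 barcodes were shared by each pair of libraries.

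Neurog2 (ENSMUSG00000027967), the proneural factor that starts the programme in glutamatergic progenitors, was highest in NPC-like cells at every age. It stood there at 181 CPM (173 to 189.9), 341 CPM (314 to 369.8) and 381 CPM (317 to 454) at P5, 12w and 24w. IMN1-like cells had 91.8, 58.5 and 36.9 CPM and IMN2-like cells 18.4, 14.98 and 10.6 CPM at the 3 ages. The NPC-like interval overlapped no interval of the other 3 neurogenic classes at any age. NSC-like cells had 17.1 CPM (14.0 to 20.8), 33.1 CPM (23.9 to 44.8) and 23.8 CPM (10.9 to 45.2), above the 6.07 CPM (3.65 to 9.48), 4.27 CPM (2.61 to 6.59) and 1.37 CPM (0.444 to 3.19) of PC-like cells. Neurog2 was the only one of the 9 whose interval in NSC-like cells lay above that in PC-like cells at all 3 ages. The 24w value rests on 9 UMIs in 3 of 112 cells. In the 221 NSC-like cells at P5 with no UMI of the markers of oligodendrocyte precursors (OPCs), given further on, Neurog2 was at 12.5 CPM (5.99 to 22.99), which overlapped the PC-like interval. At 24w the same filter left 2 UMIs in 95 cells (6.45 CPM).

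Eomes (ENSMUSG00000032446), the factor of intermediate progenitors also called Tbr2, spanned NPC-like and IMN1-like cells. Across the ages it was at 133 CPM (126 to 140.1), 319.9 CPM (294 to 348) and 296 CPM (239.9 to 361) in NPC-like cells. In IMN1-like cells it was at 262 CPM (242 to 283), 336 CPM (304 to 369.5) and 254 CPM (191 to 330.1). The intervals were apart at P5 and overlapped at 12w and 24w. In P5 cells with no UMI of the OPC markers, which the NPC-like class carried at that age, Eomes was at 228 CPM (196 to 264) in NPC-like and 269.9 CPM (221 to 326) in IMN1-like cells, and the intervals overlapped. IMN2-like cells kept 44.5, 53.3 and 88.2 CPM. NSC-like cells had 48, 3 and 3 UMIs in all, with intervals that overlapped those of PC-like cells at each age.

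Neurod4 (ENSMUSG00000048015), a bHLH factor downstream of the neurogenins, was highest in the class after that of Neurog2. IMN1-like cells had 52.1 CPM (43.5 to 61.8), 87.8 CPM (72.0 to 106) and 101 CPM (63.6 to 154). NPC-like cells had 19.8, 55.5 and 24.4 CPM, with intervals below those of IMN1-like cells at each age. In P5 cells with no UMI of the OPC markers they overlapped, at 35.5 CPM (23.6 to 51.3) and 55.5 CPM (34.8 to 84.0). NSC-like cells had 14, 1 and 0 UMIs.

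Nhlh1 and Nhlh2 are paired bHLH factors of newly born neurons, and they parted between the immature neuron classes. Nhlh1 (ENSMUSG00000051251) was at 95.4 CPM (83.7 to 108), 122 CPM (103 to 143) and 73.8 CPM (42.2 to 119.8) in IMN1-like cells, against 44.7 CPM (38.6 to 51.5), 76.6 CPM (64.3 to 90.5) and 63.5 CPM (37.6 to 100.3) in IMN2-like cells. Nhlh2 (ENSMUSG00000048540) had the reverse order, with 87.8 CPM (76.6 to 100.2), 71.5 CPM (57.3 to 88.1) and 69.2 CPM (38.7 to 114) in IMN1-like cells and 109 CPM (99.3 to 119), 131 CPM (115 to 149) and 88.2 CPM (57.1 to 130.2) in IMN2-like cells. For Nhlh1 the intervals of the classes were apart at P5 and 12w, and for Nhlh2 at 12w alone. In the IMN2-like cluster led by Calb2 and Stmn2, taken by itself, Nhlh2 was at 129 CPM (115.5 to 144) at P5, apart from the IMN1-like interval. At 24w neither gene parted the classes beyond counting error. In NPC-like cells Nhlh1 was at 11.9 and 20.4 CPM at P5 and 12w with 1 UMI at 24w, and Nhlh2 had 61, 8 and 0 UMIs, where 3 UMIs correspond to 9.15 CPM at 24w.

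Neurod1 (ENSMUSG00000034701), which is needed for granule neuron production, was high in both immature neuron classes. It was at 796 CPM (761 to 831), 1160 CPM (1101 to 1222) and 982 CPM (855 to 1123) in IMN1-like cells and at 873 CPM (845 to 901), 1223 CPM (1173 to 1276) and 1062 CPM (945 to 1189) in IMN2-like cells, so that the classes were apart at P5 only, and overlapped there in cells with no UMI of the OPC markers. At least 1 UMI was found in 93.6%, 96.4% and 94.9% of IMN1-like cells, whose median depth was 5597, 4895 and 5738 UMIs. In PC-like cells, with median depths of 5239.5, 1849 and 2031 UMIs, the shares were 14.6%, 3.81% and 1.72%. NPC-like cells were at 106, 199.7 and 97.6 CPM, above the 28.4, 20.3 and 8.47 CPM of PC-like cells.

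Neurod2 (ENSMUSG00000038255) and Bhlhe22 (ENSMUSG00000025128), factors of maturing glutamatergic neurons, were highest in IMN2-like cells at every age. Neurod2 was at 292 CPM (276 to 308), 309.6 CPM (284 to 336) and 335 CPM (271 to 409.6) there, and at 121, 102 and 96.8 CPM in IMN1-like cells. Bhlhe22 was at 354 CPM (336 to 372), 326 CPM (300.4 to 354) and 233 CPM (180.0 to 296) in IMN2-like cells, and at 164, 110.5 and 106 CPM in IMN1-like cells. For both genes these classes did not overlap at any age. In NPC-like cells Neurod2 was at 12.9, 13.4 and 18.3 CPM, with intervals that overlapped those of the 18.9, 10.2 and 7.38 CPM of PC-like cells, and Bhlhe22 was at 22.3, 8.17 and 18.3 CPM.

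Neurod6 (ENSMUSG00000037984), a close relative of Neurod2, did not follow it. It was higher in IMN1-like than in IMN2-like cells at P5, with 145 CPM (131 to 161) against 108 CPM (98.4 to 118). The classes overlapped at 12w, with 151 CPM (130.2 to 174) against 128 CPM (112 to 145), and at 24w, with 119.9 CPM (78.3 to 176) against 148 CPM (107 to 200.3). In the IMN2-like cluster led by Calb2 and Stmn2 alone, Neurod6 was at 135 CPM (121 to 149.6) at P5, which overlapped the IMN1-like interval. In P5 cells with no UMI of the OPC markers the classes overlapped as well, at 154 CPM (118 to 198) against 118 CPM (95.7 to 144).

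**Figure D1:**
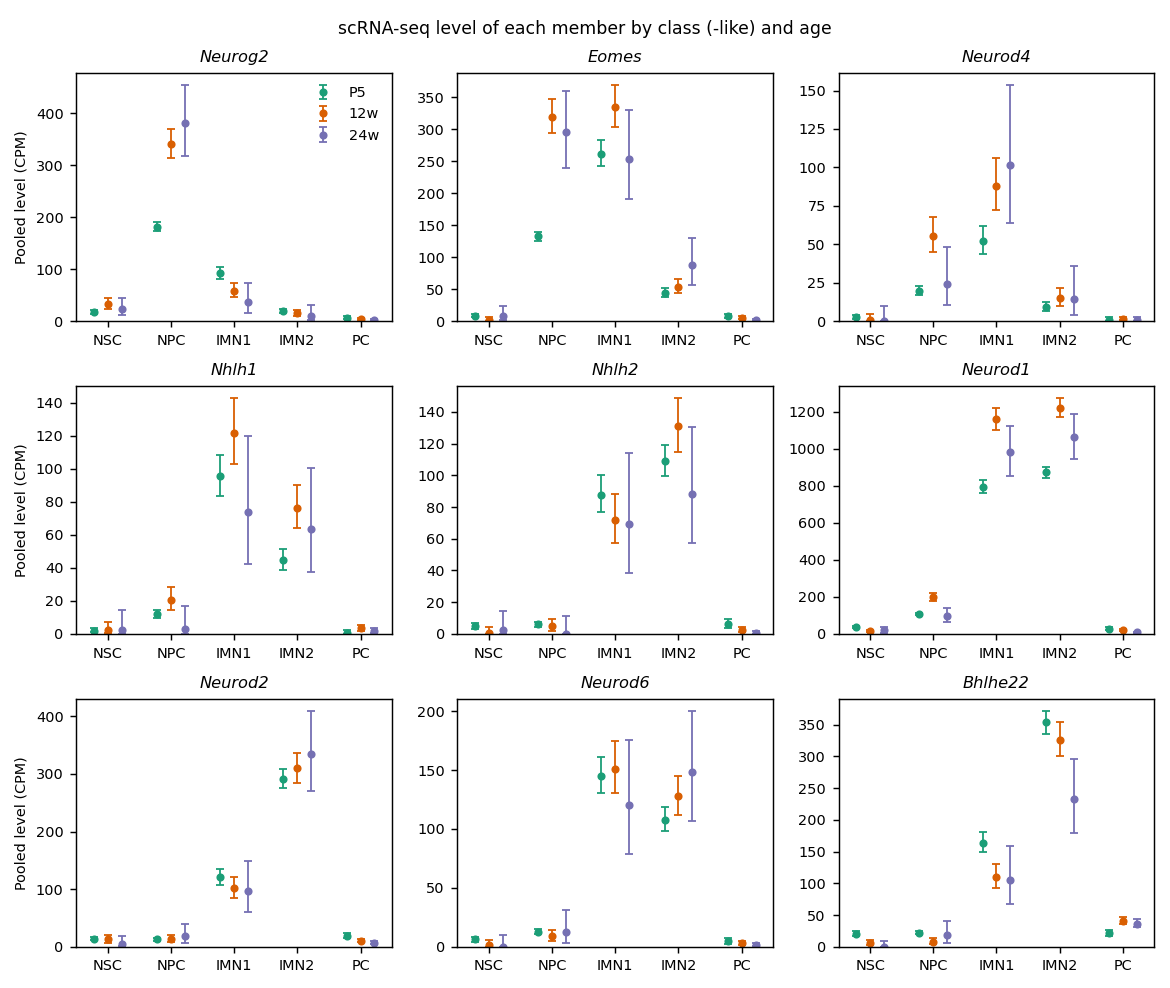
Pooled scRNA-seq level (CPM) of each of the 9 genes in NSC-like, NPC-like, IMN1-like, IMN2-like and PC-like cells at P5, 12w and 24w. Points are 1 library each and bars are exact 95% Poisson intervals for counting error. Neurog2 is highest in NPC-like cells, Eomes in NPC-like and IMN1-like cells, Neurod4 and Nhlh1 in IMN1-like cells, and Neurod2 and Bhlhe22 in IMN2-like cells.

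The classes were made of several clusters, and Neurog2 and Eomes differed among them. NSC-like cells fell mainly into a cluster led by Frzb, Pdlim3 and Tfap2c and one led by Cyr61, Pla2g16 and Fos. Neurog2 was at 33.4 CPM (26.4 to 41.8), 75.3 CPM (51.9 to 106) and 58.8 CPM (21.6 to 128) in the first and at 6.47 CPM (4.01 to 9.89), 9.003 CPM (3.62 to 18.6) and 3.84 CPM (0.0971 to 21.4) in the second, with no overlap at any age. The 24w values rest on 6 UMIs in 27 cells and 1 UMI in 81 cells, and the facing limits were 21.57 and 21.37 CPM. NPC-like cells fell into a cluster led by DNA replication genes (Rrm2, Mcm2, Pcna) and one led by mitotic genes (Cenpf, Ccnb1, Cdc20). Neurog2 was at 239.5, 427 and 536 CPM in the replicating cluster against 135, 189 and 80.7 CPM in the mitotic cluster, with no overlap of the intervals at any age. For Eomes the same comparison gave 155 against 119 CPM, 361 against 247 CPM and 328 against 233 CPM, and the intervals overlapped at 24w. Another cluster, of 51 NPC-like cells found at P5 alone, had 4 UMIs of each gene. Among IMN2-like cells a shallow cluster of 554 cells at P5, whose leading genes include Npy, Gal and Sst, had Neurod1 at 524 CPM against 1102 CPM in the cluster led by Calb2 and Stmn2, and Neurod2 at 204 against 351 CPM. Nhlh1 was at 27.1 CPM (19.6 to 36.7) against 57.1 CPM (48.2 to 67.2), whereas the intervals of Neurog2, Eomes and Neurod4 overlapped between these clusters.

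The order of the 9 genes was read along diffusion pseudotime through the 4 neurogenic classes, with the cells of each library cut into 10 bins of equal number. A gene's position is its mean bin weighted by CPM, and since the bins depend on the mix of classes, positions compare genes within an age only. Neurog2 came first at every age, at 5.93, 4.29 and 5.26. Eomes followed at 7.01, 5.49 and 6.71, Neurod4 at 7.19, 5.68 and 7.31 and Nhlh1 at 8.23, 7.26 and 8.05. Neurod2 came last, at 8.55, 8.21 and 8.81, although under 2 of 5 alternatives Nhlh2 was last instead, at 12w in cells with at least 2000 UMIs and at 12w and 24w along a maturation score. The step from Neurog2 to Eomes was 1.08, 1.2 and 1.45 bins, whereas that from Eomes to Neurod4 was 0.177, 0.185 and 0.610 bins. The 24w step from Neurog2 to Eomes depended on the deepest cells. Without the 5% of cells with most UMIs these genes were nearly level at 24w, at 7.3 and 7.35.

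The remaining 4 genes, Neurod1, Neurod6, Bhlhe22 and Nhlh2, lay between Nhlh1 and Neurod2. Neurod1 stood at 8.42, 7.66 and 8.34, Neurod6 at 8.41, 7.77 and 8.59, Bhlhe22 at 8.42, 8.18 and 8.48 and Nhlh2 at 8.51, 8.20 and 8.57. Of the 36 pairs of genes, 32 had the same order at all 3 ages. The 4 pairs that did not were Neurod1 with Neurod6, Neurod1 with Bhlhe22, Neurod6 with Bhlhe22 and Nhlh2 with Neurod6, and they differed by at most 0.515 bins at any age. Some of the 32 were nearly tied, such as Neurod2 after Nhlh2 by 0.0389 and 0.0126 bins at P5 and 12w. Neurog2 reached its highest bin at bin 6, 4 and 5, Eomes at bin 7, 5 and 7, Nhlh1 at bin 8, 6 and 8, and Neurod2 at bin 10 at each age. These positions have no replicate error. Without the 5% of cells with most UMIs, Neurod4 came before Eomes at 12w.

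**Figure D2:**
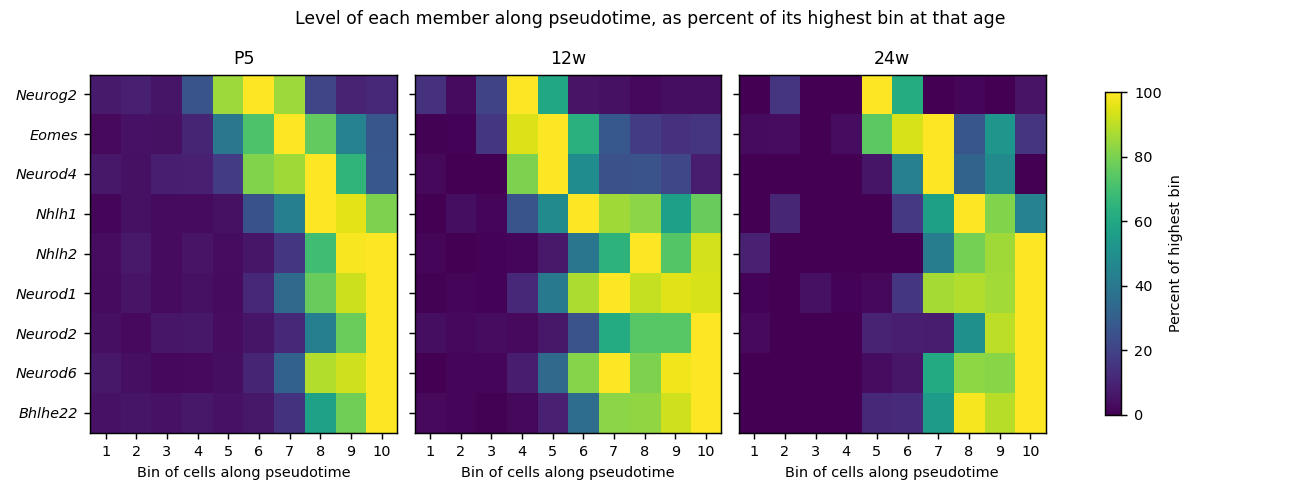
Level of each gene in 10 bins of equal cell number along pseudotime at P5, 12w and 24w, as percent of its highest bin at that age. Genes run from Neurog2 at the top to Bhlhe22 at the bottom, and the colour scale runs from 0 to 100 percent. The highest bin moves from bin 6, 4 and 5 for Neurog2 to bin 10 for Neurod2, Neurod6 and Bhlhe22, and the bins of different ages hold different mixes of classes.

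Whether the genes were present in the same cell was read after each cell had been thinned to 1000 UMIs, so that deep and shallow cells counted alike. For each pair, the number of cells with both was set against the number expected from the shares in the 4 classes. This expectation treats each class as uniform, although Neurog2 and Eomes differed between the NPC-like clusters. The part of such differences in the ratios was not tested, and the thinning was a single random draw. At P5, 12w and 24w Neurog2 and Eomes were found together in 56, 35 and 3 cells, where 29.4, 16.1 and 1.57 were expected, a ratio of 1.90, 2.17 and 1.91. Of cells with Neurog2, 22% (17.0 to 27.5), 40.7% (30.2 to 51.8) and 25.0% (5.49 to 57.2) also had Eomes, against 6.65%, 8.85% and 4.74% of the other cells. Eomes and Neurod4 were found together in 23, 11 and 2 cells, at 2.25, 1.75 and 2.74 times the expected number. These 2 pairs were the only ones of 36 with a ratio of at least 1.5 at every age, and both 24w values rest on 2 or 3 cells.

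Neurog2 with Neurod1, the ends of the progenitor step, met at the expected rate. Both were found in 43, 19 and 3 cells where 45.7, 21.7 and 2.90 were expected. Eomes and Neurod1 were also near expectation, with 107, 67 and 4 cells against 94.2, 70.0 and 5.45. Among the later genes Neurod2 with Bhlhe22 was found in 110, 48 and 5 cells, at ratios of 1.26, 1.23 and 1.72, and Neurod6 with Bhlhe22 in 57, 23 and 3 cells, at ratios of 1.33, 1.24 and 3.85. The count of 2 pairs depended on the depth: at 2000 UMIs a cell no pair reached 1.5 at every age, and the ratios of Neurog2 with Eomes were 1.90, 1.34 and 1.26. Within NPC-like cells alone the ratios of this pair were 2.12, 2.09 and 2.36, with 42, 25 and 3 cells, and within IMN1-like cells they were 1.37, 2.44 and 0, with 11, 9 and 0 cells. Eomes with Neurod4 was at 2.2, 0.935 and 0 within NPC-like cells and at 1.96, 1.89 and 3.90 within IMN1-like cells.

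Counting all 9 genes at this depth, no gene was detected in 89.5%, 93.4% and 95.5% of NSC-like cells, and 0 of 1414, 362 and 112 had 3 or more. NPC-like cells had none of the 9 in 69.2%, 55.1% and 61.4% and at least 3 in 1.95%, 3.29% and 2.27%. IMN1-like cells had at least 3 in 14.4% (11.3 to 18.0), 17.6% (13.1 to 22.9) and 17.9% (7.54 to 33.5). After thinning, most IMN1-like cells with a UMI left of the 3 lead genes had Neurod1 alone, 33.5%, 51.2% and 59.0% of the class. Eomes with Neurod1 but no Neurog2 made up 11.8%, 13.2% and 7.69%, and Neurog2, Eomes and Neurod1 together 0.665%, 2.00% and 0 of 39 cells. Without thinning, Eomes was found in 64.3%, 69.6% and 61.5% of IMN1-like cells and Neurod1 in 93.6%, 96.4% and 94.9%. Most of the class therefore held both Eomes and Neurod1 at each age, and the thinned shares understate how often these genes were found together.

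**Figure D3:**
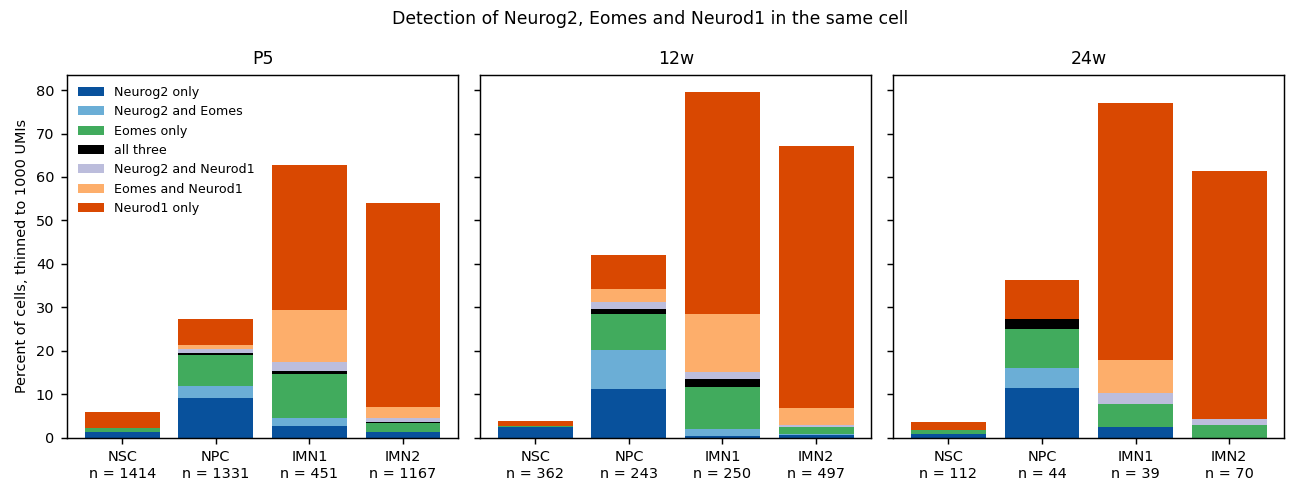
Percent of NSC-like, NPC-like, IMN1-like and IMN2-like cells at P5, 12w and 24w in which Neurog2, Eomes and Neurod1 were detected alone or together after thinning to 1000 UMIs, with the number of cells under each bar. The rest of each bar to 100 percent had none of the 3 genes. Neurod1 alone is the largest coloured share of IMN2-like cells at 47.0, 60.2 and 57.1 percent, and Neurog2 with Eomes reaches 9.05 percent of NPC-like cells at 12w.

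In cells with a UMI of these genes, Prox1, the factor of the granule lineage, was at 123, 89.8 and 119 CPM in cells with Neurog2, at 242, 270 and 221 CPM in cells with Neurod1 and at 303, 391 and 359 CPM in cells with Nhlh2. The lowest values, 26.3 and 34.5 CPM, were those of the 7 and 15 cells with Neurod4 and Eomes left after thinning at 24w. Without thinning, IMN1-like cells alone held 17 cells with Neurod4 and 24 with Eomes at that age. NSC-like cells as a class had Prox1 at 43.4, 32.3 and 26.5 CPM, so that those lowest values were near the level of NSC-like cells at 24w. Of the genes of the pyramidal list, Fezf2 was at 26.3 to 159 CPM, below the 168.5, 241 and 185 CPM of NSC-like cells as a class. Of the others, Wfs1 did not exceed 21.1 CPM, Pou3f1 13.2 CPM, Man1a 6.1 CPM and Fibcd1 0.214 CPM. Of the genes of GABAergic neurons, Gad1 did not exceed 22.8 CPM and Dlx2 26.5 CPM.

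To compare ages, a gene was counted as different where its pooled CPM in a class was at least 2-fold from P5 in the same direction at both 12w and 24w, a rule of size and not a test. In NPC-like cells 1 of the 9 genes, Eomes, was higher at both ages, where 4.70% of 11733 genes were higher by this rule and 4.82% lower. Its level was 2.41 times (2.18 to 2.66) that of P5 at 12w and 2.23 times (1.79 to 2.74) at 24w. Neurog2 was just short of the rule, at 1.88 times (1.71 to 2.06) and 2.10 times (1.74 to 2.52). Neurod4 was at 2.80 times (2.17 to 3.59) at 12w but 1.23 times (0.525 to 2.48) at 24w, and Neurod1 at 1.88 and 0.921 times. For Neurod1 the replicating and mitotic clusters lay on opposite sides of the P5 level at 24w, at 0.275 (0.101 to 0.604) and 1.99 (1.29 to 2.95) times. These values rest on 6 UMIs in 27 cells and 26 UMIs in 17 cells. For Neurog2 the same clusters were at 2.24 (1.83 to 2.71) and 0.6 (0.273 to 1.15) times, the latter on 9 UMIs in 17 cells. For Eomes they were at 2.12 and 1.95 times. The median ratio of all genes was 0.056 to 0.20 on the log2 scale over the 4 classes.

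The OPC markers moved with this result. The summed level of the 8 OPC markers in NPC-like cells at P5 was 847 CPM, with none of them at 0, against 39.1 and 48.8 CPM at the later ages, with 1 and 2 at 0. In cells with no UMI of these markers, of which 124 were left at P5, Eomes was at 228 CPM at P5 against 333 and 295 CPM, a ratio of 1.46 (1.22 to 1.74) and 1.29 (0.955 to 1.73). Neurog2 in the same cells was at 303, 363 and 337 CPM, a ratio of 1.2 and 1.11. With cells at or under 1000 CPM of the OPC markers, which left out 26.4% of NPC-like cells at P5, the Eomes ratio was 1.92 and 1.77, so that it passed the rule under neither filter. Under the filter at 1000 CPM the classes at P5 that are given above as overlapping without these UMIs were apart for Eomes, Neurod4, Neurod1 and Neurod6, with Eomes at 167 CPM (158 to 177) in NPC-like and 259 CPM (239 to 279.9) in IMN1-like cells. The summed level of the 7 pericyte markers in NPC-like cells was 119, 1179 and 2476 CPM, and its part in these ratios was not tested.

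In NSC-like cells 2 of the 9 genes, Bhlhe22 and Neurod6, were lower at both ages, where 5.04% of 11173 genes were lower and 6.89% higher. Bhlhe22 had 120, 7 and 0 UMIs and Neurod6 37, 2 and 0 UMIs. At P5 the Bhlhe22 level of 20.2 CPM equalled the 21.1 CPM of PC-like cells and the 21.2 CPM of astrocyte-like cells within counting error. Free RNA predicted from empty droplets made up 86.2% of the Bhlhe22 level and 186% of the Neurod6 level at 12w, so these values are at the level of background. No gene of the 9 passed the rule in IMN1-like cells, where 5.85% of genes were higher and 2.12% lower, or in IMN2-like cells, where 5.39% were higher and 4.49% lower. In IMN1-like cells the ratios of 12w and 24w to P5 were 1.46 and 1.23 for Neurod1, 1.69 and 1.95 for Neurod4 and 0.637 and 0.402 for Neurog2.

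The other genes of the pathway were compared with the same rule. Of 7 antagonists, 4 were lower in NPC-like cells at 12w and 24w, Hes5, Id1, Id3 and Hey1, and none was higher. Hes5 was at 309.5, 102 and 73.2 CPM at the 3 ages, and Id3 at 595, 31.5 and 79.3 CPM. The median of this list was -1.23 and -1.06 on the log2 scale, against 0.123 and 0.156 for all genes. In NSC-like cells Id1 and Id3 were lower and Id4 higher, with Hes5 at 1019, 1003 and 963 CPM. The lower calls were not particular to NPC-like cells: 3 of 7 (Hes5, Id1 and Id3) were lower in IMN1-like cells and 4 of 7 (Hes5, Id1, Id3 and Hey1) in IMN2-like cells, where the list's median was -2.05 and -1.33.

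Of 12 early targets of the proneural factors, 5 were higher in NPC-like cells and none was lower. They were the Notch ligands Dll1 (21.2, 71.8 and 42.7 CPM) and Dll3 (29.2, 61.9 and 82.3 CPM), the cell cycle exit gene Gadd45g (285, 725 and 653 CPM), the RNA-binding protein Elavl4 (156, 449.6 and 396 CPM) and the neuronal splicing factor Srrm4 (26.6, 54.9 and 67.1 CPM). The list's median was 0.823 and 1.15 on the log2 scale. In IMN2-like cells 1 of 12, Elavl4, was higher, and in NSC-like and IMN1-like cells 0 of 12 were higher. Rcor2 was lower in NSC-like cells, at 0.383 (0.161 to 0.785) and 0.161 (0.00403 to 0.916) times the P5 level with 98, 8 and 1 UMIs. Of the 7 upstream factors and E proteins none passed the rule in NSC-like, NPC-like or IMN1-like cells. Of the 8 later genes of the lineage, none passed in NPC-like, IMN1-like or IMN2-like cells and 4 (Sox11, Sox4, Dcx and Rbfox3) were lower in NSC-like cells; Sox11, Sox4, Dcx, Tubb3 and Calb2 also served to name the classes. Of the granule lineage list none passed in any of the 4 classes, and of the pyramidal list Pou3f1 was lower in NSC-like and IMN2-like cells and Wfs1 higher in NSC-like cells. At least 1 UMI of the OPC markers was found in 84.4%, 16.3% and 15.2% of NSC-like cells at P5, 12w and 24w. The OPC markers given above moved with the NPC-like counts. The summed level of the 9 astrocyte markers in NPC-like cells did too, at 405, 109 and 82.3 CPM, with 1 of them at 0 at 24w. In IMN1-like cells the OPC markers summed to 323, 25.2 and 27.7 CPM and the astrocyte markers to 150, 37.4 and 23.1 CPM, with 0, 1 and 5 and with 0, 0 and 6 of them at 0. In IMN2-like cells the sums were 494, 27.2 and 56.4 CPM for OPCs, with 0, 1 and 3 markers at 0, and 387, 57.1 and 113 CPM for astrocytes, with none at 0. The 7 pericyte markers went the other way, at 114, 1055 and 3006 CPM in IMN1-like and 100, 1127 and 2212 CPM in IMN2-like cells. The part of all these markers in these counts was not tested.

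The scATAC-seq libraries counted transposase cuts in peaks called for each library, and the classes were carried over from the scRNA-seq data. The 9 genes were left out of the features that matched the data sets. Peaks at these genes were not left out of the components that weighted the labels. Peaks that reached within 500 bases of a gene's start in GENCODE vM21 were counted over their whole width, 518 to 7280 bases, and are called promoters below. These counts are given per 1000000 counts in peaks (CPM in peaks). Since the peak at a gene differed in width between libraries, they compare classes within an age only. The promoters of all 9 genes were more open in NPC-like than in NSC-like nuclei at every age, where 29.8% of 14220 promoters were. Eomes had 20.4, 17.8 and 6.89 CPM in peaks in NSC-like nuclei against 74.9, 99.9 and 93.0 in NPC-like nuclei, a ratio of 3.68 (3.02 to 4.45), 5.61 (4.59 to 6.96) and 13.5 (8.77 to 20.6). For Neurog2 the ratio was 1.70 (1.51 to 1.91), 2.56 (2.2 to 3.00) and 1.70 (1.33 to 2.17), and NSC-like nuclei had 67.2, 39.2 and 42.9 CPM in peaks. In NSC-like nuclei the Neurog2 promoter was above that of PC-like nuclei, at 1.56 times (1.29 to 1.89), 1.61 times (1.40 to 1.83) and 1.89 times (1.60 to 2.22). Astrocyte-like nuclei had 31.8 (29.7 to 34.0), 32.2 (26.2 to 39.2) and 38.1 (25.2 to 55.2) CPM in peaks there. Their intervals were apart from those of NSC-like nuclei at P5 and overlapped them at 12w and 24w. At 24w the intervals reached 1 for Neurod4, at 2 times (0.695 to 5.70), and Nhlh2 rested on 0 counts in NSC-like and 2 in NPC-like nuclei. The Nhlh2 peak was 518 bases wide at 24w, against 3684 and 3698 bases at P5 and 12w.

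Later in the lineage the promoters of the early genes still held counts. In IMN2-like nuclei the Neurog2 promoter had 62.3, 62.8 and 63.1 CPM in peaks, 0.927 (0.826 to 1.04), 1.60 (1.41 to 1.84) and 1.47 (1.23 to 1.77) times the NSC-like value, while its RNA level in IMN2-like cells was 18.4, 14.98 and 10.6 CPM. The Eomes promoter had 65.2, 71.6 and 79.0 CPM in peaks in IMN2-like nuclei, 0.787, 0.779 and 0.732 times its value in IMN1-like nuclei. Nhlh1 was higher in IMN1-like than in NPC-like nuclei, at 2.45 (1.98 to 3.03), 2.37 (1.99 to 2.86) and 3.23 (1.93 to 5.41) times. Neurod1 was at 2.74, 5.27 and 7.54 times the NSC-like value in NPC-like nuclei and at 1.45, 1.47 and 1.73 times the NPC-like value in IMN1-like nuclei. In IMN2-like nuclei Neurod2 was at 5.85, 7 and 8.78 times and Neurod6 at 13.5, 5.25 and 23.1 times the NSC-like value, the last of these resting on 5 counts in NSC-like nuclei.

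**Figure D4:**
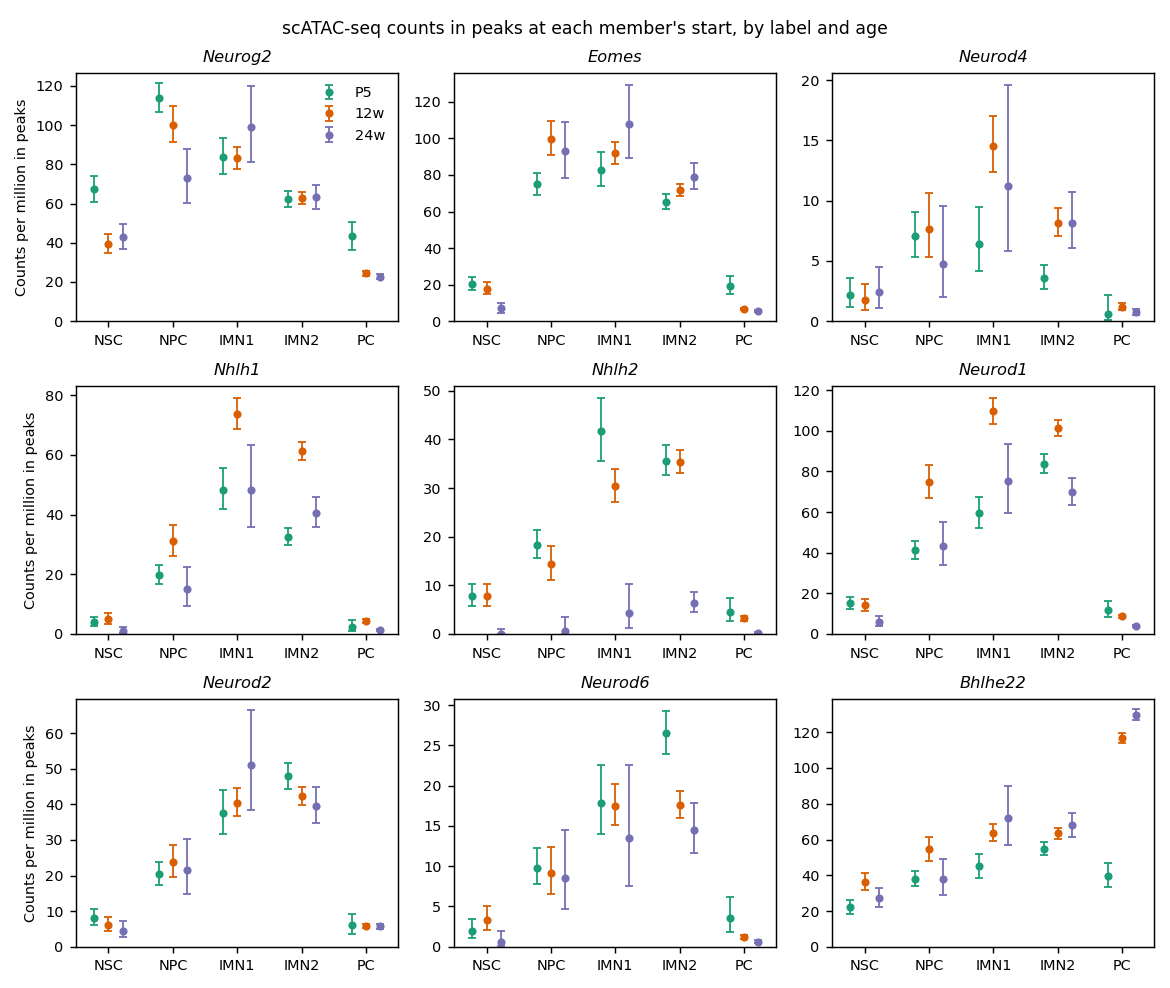
Counts in whole scATAC-seq peaks that reach within 500 bases of the start of each gene, per 1000000 counts in peaks. Nuclei were labelled NSC-like, NPC-like, IMN1-like, IMN2-like and PC-like at P5, 12w and 24w. Points are 1 library each and bars are exact 95% Poisson intervals for counting error. NPC-like nuclei lie above NSC-like nuclei for all 9 genes, and Bhlhe22 is highest in PC-like nuclei at 12w and 24w.

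Bhlhe22 stood apart from the other genes outside the lineage. In PC-like cells it was at 21.1 CPM (16.3 to 26.8), 40.7 CPM (35.2 to 46.9) and 36.3 CPM (30.4 to 43.1) over the 3 ages, with 66, 191 and 133 UMIs. These were 2.06%, 19.0% and 51.4% of all UMIs of the gene in cells of the library. PC-like cells were themselves 542 of 12932, 2440 of 5266 and 1745 of 2795 cells. The rise in this share can therefore not be read apart from the rise of the class. Free RNA keeps genes in one ratio, and 1 UMI of Neurod1 in empty droplets came with 0.216 UMIs of Bhlhe22 at 12w and 0.312 at 24w. In PC-like cells the ratio was 2.01 and 4.29, and in vascular smooth muscle-like (VSMC-like) cells 1.66 and 3.67. Neurog2, Eomes and Neurod6 had ratios in PC-like cells near those of empty droplets, such as 0.211 against 0.200 and 0.161 against 0.149 for Neurog2. Neurod2 was above that of empty droplets too, at 0.505 against 0.164 and 0.871 against 0.277, and Nhlh1 at 0.168 against 0.0752 and 0.194 against 0.0827 with 16 and 6 UMIs. These ratios rest on 95 and 31 UMIs of Neurod1 in PC-like cells.

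The promoter of Bhlhe22 was likewise open in these nuclei. PC-like nuclei had 39.6 (33.2 to 46.9), 117 (114 to 119.6) and 129.8 (127 to 133) CPM in peaks at P5, 12w and 24w, against 54.8, 63.5 and 68.0 in IMN2-like nuclei. In VSMC-like nuclei the values were 36.4 (20.4 to 59.97), 68.6 (64.7 to 72.7) and 73.4 (68.9 to 78.2), so that PC-like nuclei were above both at 12w and 24w. The other 8 promoters were lower in PC-like than in IMN2-like nuclei at each age. No empty droplets are listed in the P5 library, so the free RNA of that age was not measured.

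**Figure D5:**
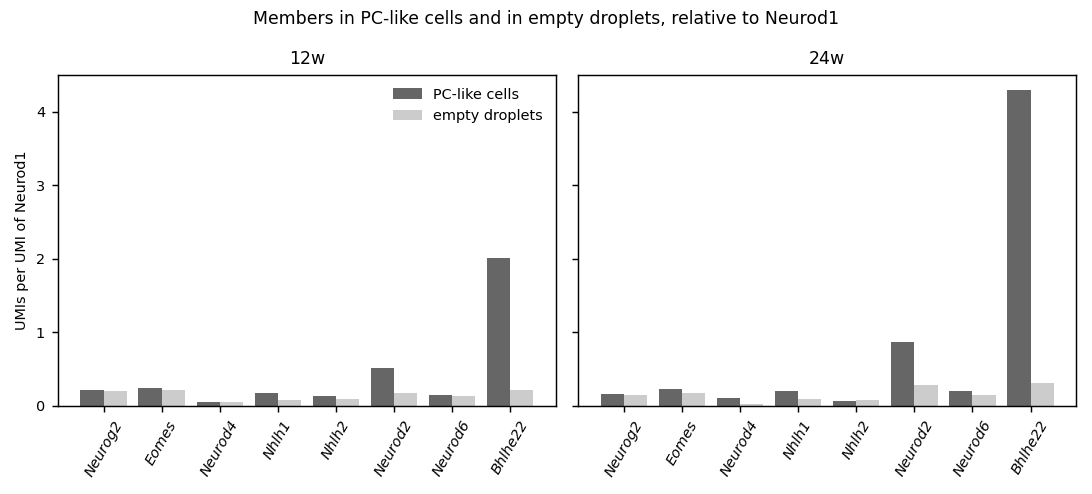
UMIs of each gene per UMI of Neurod1 in PC-like cells and in empty droplets (barcodes with 10 to 100 UMIs) at 12w and 24w. Bars start at 0. Bhlhe22 reaches 2.01 and 4.29 in PC-like cells against 0.216 and 0.312 in empty droplets, while the pairs of bars of Neurog2, Eomes and Neurod6 are close in height.

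The genes most like each of the 9 were named by Pearson r over 26 profiles of class and age (log2 of CPM plus 10), among 13491 genes. Eomes and Neurod4 were each other's nearest gene, with r = 0.968, followed for both by Mfap4 and Fam159b. Neurog2 was nearest to Pkib (r = 0.854), Insm1 (0.849) and Fkbp3 (0.847), so that no gene followed it as closely as Neurod4 followed Eomes. Nhlh1 and Neurod1 shared Tbr1 and Sstr2, with r between 0.959 and 0.972. Neurod2 and Nhlh2 shared Calb2 and Hecw1, with r between 0.970 and 0.976, and Bhlhe22 had Hecw1 (0.926), Neurod2 and Calb2. Neurod6 was nearest to Onecut2 (0.984) and Nhlh2 (0.967). Mfap4 and Calb2 are among the markers that named the classes, and the profiles share libraries, so these values are descriptions.

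In the RNA-seq of cultured cells, the labels of the libraries went against the targeted gene. Levels in transcripts per 1000000 (TPM) were analysed for 4 libraries of 20040233 to 21493510 reads, labelled Ctrl 3, Setd8KD 1, Setd8KD 2 and Setd8KD 3. Setd8, the targeted gene, was at 154 TPM in the library labelled Ctrl 3, 143 TPM in both libraries labelled Setd8KD 1 and 2, and 36.4 TPM in the library labelled Setd8KD 3. The values of the first 3 were those of control columns in the study's own table within 0.1% for 169 of 169 genes, and those of the last were those of a knockdown column, so 3 controls were compared with 1 knockdown library, and the spread of the latter was taken to be that of the controls.

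Most of the 9 genes were at or near 0 in these cultures. Nhlh2 and Neurod2 had 0 reads in all 4 libraries, Nhlh1 had 1 read in 1 library and Neurod6 1 read in 1 library. Neurog2 had 2, 11, 4 and 9 reads and Neurod4 2, 1, 2 and 6 reads in the order above. Eomes had 16, 23 and 14 reads in the controls and 44 in the knockdown library (0.488, 0.682, 0.440 and 1.34 TPM), and Bhlhe22 16, 9, 10 and 18 reads. Neurod1 was the only one of the 9 above a mean of 1 TPM, with 1.86, 1.28 and 1.12 TPM in the controls and 1.64 TPM in the knockdown library. The knockdown value lay within the range of the controls. The difference of 0.13 on the log2(TPM + 1) scale (SE 0.23) had an adjusted p of 0.672 (limma, two-sided). Thus 0 of the 1 gene tested was called, at an unadjusted p of 0.584, where 14.8% of 12703 genes were called at an adjusted p under 0.05 and at least 1.5-fold.

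For the other genes of the pathway, limma calls rest on the spread of the 3 controls alone and describe this 1 library, with no replicate of the knockdown, so they are given as differences of that library and not as an effect of the knockdown. Upstream of the 9, Pax6, a factor of neural progenitors, was at 24.0, 24.4 and 22.4 TPM in the controls and 14.4 TPM in the knockdown library. Its log2 difference was -0.67, and it was the only one of 6 upstream genes past the limits above. Of 7 antagonists, Hes5 was on the lower side, at 28.1, 28.2 and 24.0 against 12.6 TPM (-1.02), and Id4 on the higher side (0.97). None of 11 early targets was past these limits by limma, and 6 had an unadjusted p under 0.05, as had 6451 of the 12703 genes. Of the later genes of the lineage, 1 of 5, Tubb3, a neuronal tubulin, was past them, at 0.987, 1.28 and 1.49 against 4.34 TPM.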

How the data were processed

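UMI counts per gene and barcode were deposited as the authors obtained them with Cell Ranger 2.2.0 on mm10, 1 library per age, and scATAC-seq counts per peak and barcode came from Cell Ranger ATAC on mm10 with peaks called per library. The deposited TPM values came from reads trimmed by the authors with Trimmomatic and aligned with STAR, and hold 0.01 read added per gene. From there, cells were taken as barcodes with 1000 or more UMIs from 500 or more genes and no more than 10% of UMIs from mitochondrial genes, and doublets were removed with Scrublet in scanpy 1.11.5 (752 at P5, 85 at 12w, 2 at 24w; the last is 0.0715% of cells, so the caller cannot be taken to have worked there). Ages were integrated in Seurat 5.3.0 with 2000 variable genes, 30 dimensions and a resolution of 0.8, and clustered in 2 rounds with the 9 genes left out. Class names rest on at least 3 markers and are rebuilt, not the study's own. Age ratios use a minimum of 20 UMIs where higher. Nuclei with 3000 to 100000 counts in peaks were labelled by transfer with a score of at least 0.5, and promoter intervals count cuts in pairs (counts divided by 2), since 89.9 to 92.2% of entries were even, while levels and ratios use the counts as listed. RNA-seq was tested with limma 3.58.1 on log2(TPM + 1), for genes with a mean of at least 1 TPM, two-sided with Benjamini-Hochberg adjustment over all genes tested. This log scale understates differences of low genes, and nothing in the labels says whether libraries came from separate cultures. Whole reads were recovered from the TPM values to give depth. The scripts were tested on simulated data.

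The genes named are the 9, the pathway lists by counts with examples (2 to 4 by the rule, more where more passed), Setd8, and the 3 genes most like each of the 9. Leading cluster genes and the remaining genes named were chosen after their values were seen. The members and lists were chosen with earlier results of these data known. The alternatives on OPC markers and on single IMN2-like clusters were added after seeing the data. Results of some single genes are not reported here.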

Additional observations from a re-analysis of the deposited data

How the results depend on the processing

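Of the 36 pairs of genes, 31 to 34 had one order at all 3 ages within each of the 5 alternatives tried, against 32 as reported, with Neurog2, Eomes, Neurod4 and Nhlh1 first in that order at each age except where the 5% of cells with most UMIs were left out at 12w. Without those cells Neurog2 and Eomes were nearly level at 24w, at 7.3 and 7.35. The count of 2 gene pairs found together at 1.5 times expectation or more at every age was 0 with 2000 UMIs a cell, which leaves out 487, 77 and 36 cells, 0 without thinning, 1 without the 5% of cells with most UMIs, 1 within NPC-like cells and 1 within IMN1-like cells. The 3 differences with age became 8 with a 1.5-fold rule, 5 after subtraction of free RNA and 1 in cells with no UMI of the OPC markers (Neurod1, lower in NSC-like cells, and none of the 3), and were 2 to 4 under the other 6 alternatives. In cells with no UMI of the OPC markers Bhlhe22 and Neurod6 in NSC-like cells had 18 and 8 UMIs at P5, under the minimum of 20, and were at 0.301 and 0.0966 times that level at 12w. All 9 promoters were higher in NPC-like than in NSC-like nuclei under both alternatives. No gene of the 9 was called in the RNA-seq under any alternative run, but those other than Neurod1 were tested only without the filter on low values. The Neurod1 difference was 0.0455 to 0.261 on the log2 scale without each control library in turn, and turned to -0.292 when the libraries were grouped by their titles. Leaving out the library labelled Setd8KD 3 was not run, since it leaves no knockdown library. No paired analysis was possible because the libraries with values share fewer than 2 replicate numbers between groups. The 24w values rest on the fewest cells, 39 to 112 a neurogenic class, and 1 library per age gives no replicate error.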
